A study of Mus musculus with 27 samples.

Results

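Smooth muscle contractile genes encode the actins, myosin subunits and thin-filament and intermediate-filament proteins with which vascular smooth muscle holds and changes the calibre of a vessel. The set was taken by symbol and held 10 genes, Acta2, Tagln, Des, Myh11, Cnn1, Myl9, Tpm2, Actg2, Lmod1 and Actc1, all found among the 40129 genes of the table. They were followed in whole retinas of wild-type C57BL/6 mouse pups (C57BL/6J in the study's methods) of both sexes in the oxygen-induced retinopathy (OIR) model, in which pups breathe 75% oxygen from postnatal day 7 to day 12, lose retinal capillaries and return to room air. The retina is then ischemic at day 14 (p14) and carries pathological vessels at day 17 (p17). Age-matched control pups (nOIR) stayed in room air. Each library came from 1 mouse, from 1 or both of its retinas after perfusion with buffer, and there were 6 OIR and 6 nOIR mice at p14 and 8 OIR and 6 nOIR mice at p17. A further nOIR p14 mouse, S4, was left out because the study had left it out for lens genes. The pups came from a few litters per group, and the litter of each was not known, so the tests took mice as independent.

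Contraction is driven by myosin, whose heads pull on actin filaments once the regulatory light chain is phosphorylated. Tropomyosin, calponin, transgelin and leiomodin attach to or shape the actin filament, and desmin ties the filaments together. In the retina these proteins are found in arteriolar smooth muscle cells, which enwrap the vessel, and in part in pericytes, which sit on capillaries. Many of their genes are targets of serum response factor (SRF), which binds a DNA motif called the CArG box and is helped there by its cofactor myocardin.

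Values are normalized reads, which are read counts divided by 1 size factor per mouse. Recovered totals lay between 17029536 and 33593428 reads per mouse. The retina's own genes were abundant in all 26 mice, with the rod transducin gene Gnat1 between 208953 and 562711 normalized reads. OIR p17 S2 stood apart. The sum of 22 striated muscle markers was 11824 normalized reads in it, 2493 in OIR p17 S7 and between 786 and 1022 in the other OIR p17 mice, while the other groups spanned 627 to 1131. S2 also had the highest lens sum of all 26 mice, 41790 normalized reads. Values without S2, S7 or both are given beside Actc1, Tpm2, Des, Cnn1, Myh11, Myh2 and the counts at p17.

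The sequences in front of the genes are shown first because SRF motifs there are what these genes are known to share. RefSeq promoters of build GRCm38.p6 were matched for 7 of the 10 genes, and each window covered the 250 bases before the start site. Tagln, Myh11 and Actg2 had no entry. Both strands were searched for an exact CArG box, for a CArG box with 1 mismatch and for MCAT, the letters CATTCC. An exact CArG box lay in 2 of 7 windows, against 1.47% of the 32851 windows of all promoters. A box with 1 mismatch lay in 4 of 7 windows, against 17.5%, and MCAT in 2 of 7, against 12.6%. The 4 windows that held a box are those of Acta2 (chr19:34255374-34255623, minus strand), Myl9 (chr2:156775214-156775463, plus strand), Lmod1 (chr1:135324563-135324812, plus strand) and Actc1 (chr2:114052876-114053125, minus strand). They are printed in gene orientation, and capitals mark the boxes, exact or with 1 mismatch.
Acta2 promoter: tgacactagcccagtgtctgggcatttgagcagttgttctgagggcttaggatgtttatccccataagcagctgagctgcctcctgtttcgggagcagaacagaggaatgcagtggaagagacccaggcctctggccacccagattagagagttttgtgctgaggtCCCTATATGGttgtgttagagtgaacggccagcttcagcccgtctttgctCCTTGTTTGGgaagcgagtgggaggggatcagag
Myl9 promoter: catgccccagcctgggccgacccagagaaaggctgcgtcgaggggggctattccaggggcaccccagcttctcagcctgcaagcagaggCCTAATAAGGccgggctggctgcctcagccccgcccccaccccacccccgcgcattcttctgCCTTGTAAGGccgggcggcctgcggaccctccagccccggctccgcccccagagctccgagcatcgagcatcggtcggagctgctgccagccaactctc
Lmod1 promoter: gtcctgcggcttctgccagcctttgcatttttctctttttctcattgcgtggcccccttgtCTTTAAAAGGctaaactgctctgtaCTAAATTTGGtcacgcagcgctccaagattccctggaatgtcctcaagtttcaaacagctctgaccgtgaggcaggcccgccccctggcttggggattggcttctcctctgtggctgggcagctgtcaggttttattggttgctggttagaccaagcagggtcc
Actc1 promoter: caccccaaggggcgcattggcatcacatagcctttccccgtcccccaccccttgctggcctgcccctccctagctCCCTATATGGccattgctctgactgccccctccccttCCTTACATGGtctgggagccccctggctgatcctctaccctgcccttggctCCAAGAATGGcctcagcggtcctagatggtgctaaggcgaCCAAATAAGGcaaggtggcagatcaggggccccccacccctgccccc

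Acta2 held its boxes 84 and 34 bases before the start site, both with 1 mismatch, and an MCAT motif at 146. Myl9 had its exact box at 161 and another with 1 mismatch at 99. Actc1 had its exact box at 47 and 3 with 1 mismatch, at 175, 138 and 87. Lmod1 had boxes with 1 mismatch at 189 and 164 and MCAT at 130. None of these motifs was found in the windows of Des, Cnn1 and Tpm2. The matches are descriptions of letters, and windows with boxes belonged both to genes that rose in OIR (Acta2, Myl9) and to genes that did not pass the test (Lmod1, Actc1). Des, Cnn1 and Tpm2, whose windows held none of the motifs, were each called higher in OIR at p17. Bases outside the windows were not searched, and Tagln, Myh11 and Actg2 had no window. Whether SRF acts on any of these genes was therefore not tested.

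Compared with nOIR mice of the same age, 5 of the 10 contractile genes were higher in the OIR retina at p14 (limma, adjusted p under 0.05), against 3.18% of all 27137 genes tested. The 5 were Acta2, Actg2, Tagln, Des and Tpm2. At p17, 8 of 10 were higher, against 7.39% of all genes, with Myh11, Cnn1 and Myl9 joining them. The p14 count was 3 with all genes above 0 tested, with nOIR p14 S4 included or with quantile normalization, since Tagln and Tpm2 lost their calls. Lmod1 and Actc1 passed the test at neither age. The median log2 fold change of the 10 genes was 1.00 at p14 and 2.16 at p17, beside 0.02 and -0.02 over all genes. None was lower, against 2.91% of all genes at p14 and 5.12% at p17; at an unadjusted p under 0.05 the counts were 1 (Lmod1) and 0, and edgeR and DESeq2 also called 0. Less RNA per cell and fewer cells of a type cannot be told apart in whole retina, and the same holds for an increase.

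**Figure D1:**
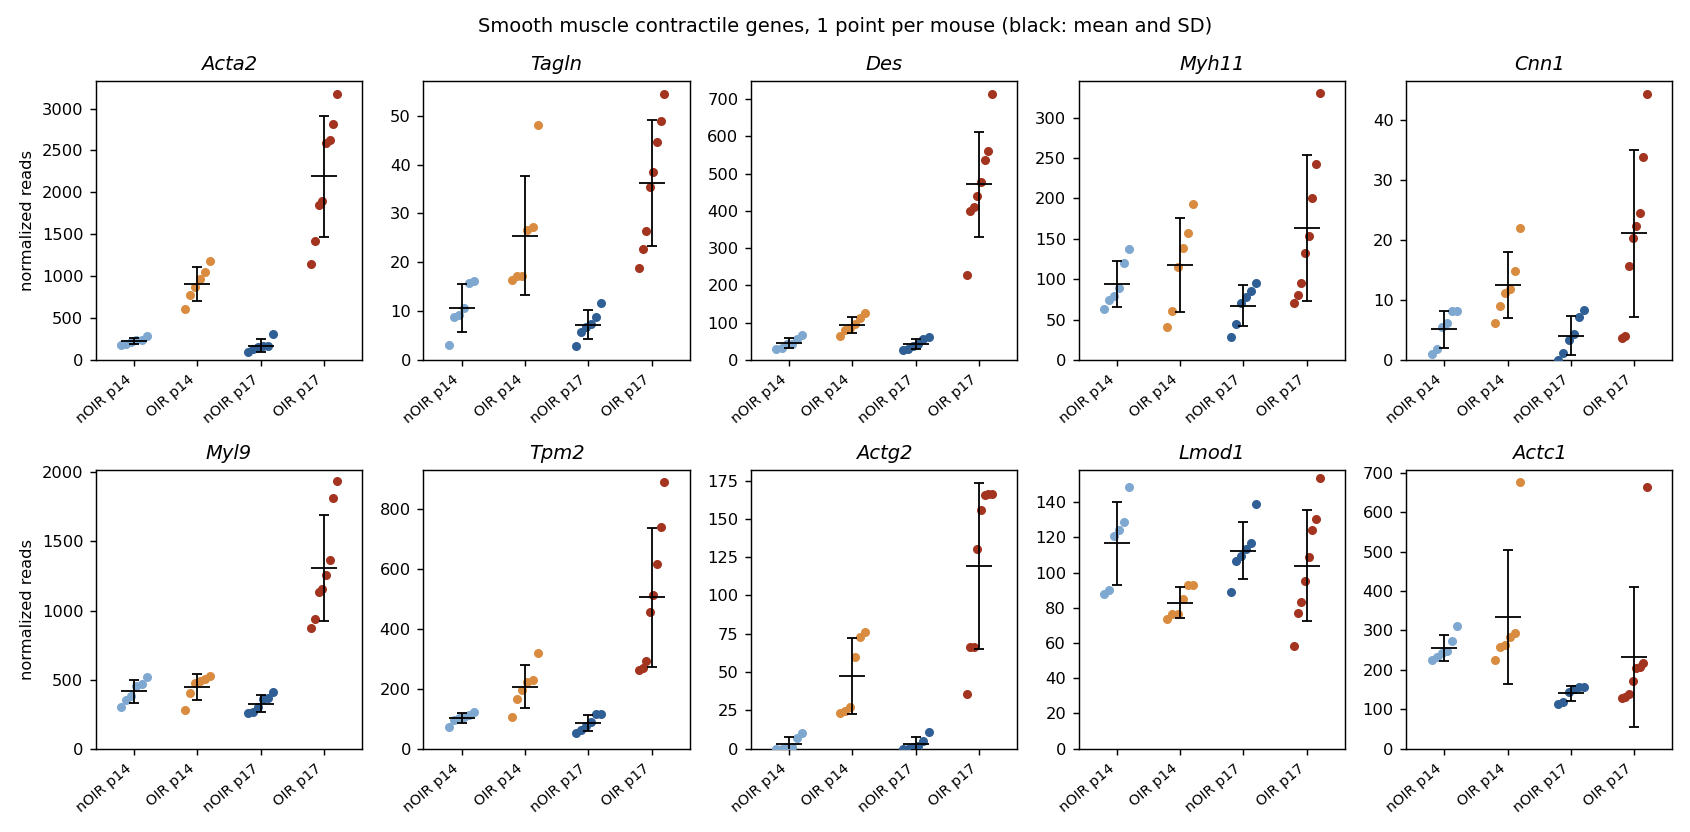
Normalized reads (vertical axes from 0) of each contractile gene in every mouse of the 4 groups, with 1 point per mouse and the mean and SD in black. The 8 OIR p17 mice lie above all nOIR p17 mice for Acta2, Tagln, Des, Myl9, Tpm2 and Actg2, whereas the Lmod1 groups overlap and 1 mouse in each OIR group stands far above the rest for Actc1.

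Among the actins, Acta2, the smooth muscle alpha-actin, rose at both ages. Its normalized reads ran from 181 to 283 with a median of 224 in nOIR p14 mice and from 603 to 1177 with a median of 919 in OIR p14 mice. At p17 the nOIR mice ran from 99.1 to 312 with a median of 162, and the OIR mice from 1143 to 3174 with a median of 2246. Every OIR mouse was thus above every control of its age. The means were 224 ± 37.2 against 908 ± 205 at p14 (SD, n = 6 and 6) and 172 ± 73.2 against 2190.2 ± 718 at p17 (SD, n = 6 and 8), a 4.06-fold and a 12.7-fold difference. The log2 fold changes were 2.00 ± 0.23 (SE, adjusted p = 7.93e-07) and 3.68 ± 0.22 (SE, adjusted p = 4.29e-13).

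Actg2, the enteric smooth muscle gamma-actin, had the largest fold change of the 10 genes at both ages and was low in controls. In nOIR mice it ranged from 0 to 10.1 normalized reads at p14, with a median of 0.895, and from 0 to 11.0 at p17, with a median of 1.43; it was at 0 in 2 mice of each control group. The OIR mice ranged from 23.6 to 76.3 at p14, with a median of 43.4, and from 35.7 to 166 at p17, with a median of 143. The groups did not overlap at either age. Its log2 fold change was 4.03 ± 0.62 at p14 (SE, adjusted p = 7.01e-05) and 5.29 ± 0.58 at p17 (SE, adjusted p = 7.15e-08), on the scale of log2(normalized reads + 1). For a gene this low in controls the values depend on the pseudocount. With a pseudocount of 0.1 in place of 1 they were at their highest among all alternatives, 5.46 and 6.67, and the lowest were 3.72 and 5.00. The ratio of the OIR to the nOIR mean was 15.0 at p14 and 38.2 at p17.

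Actc1, the cardiac alpha-actin, passed the test at neither age. It lay between 226 and 312 normalized reads in nOIR p14 mice (median 245) and between 224 and 676 in OIR p14 mice (median 273). At p17 it lay between 114 and 158 in nOIR mice (median 148) and between 129 and 663 in OIR mice (median 188). Both OIR groups overlapped their controls, and 1 mouse in each, S2, held the highest value by far. The log2 fold change was 0.28 ± 0.28 at p14 (SE, adjusted p = 0.712) and 0.52 ± 0.26 at p17 (SE, adjusted p = 0.235). Without OIR p14 S2 the p14 value was 0.05, and without OIR p17 S2 the p17 value was 0.27 (adjusted p = 0.963 and 0.451). The striated muscle sum was 11824 normalized reads in OIR p17 S2 but 658 in OIR p14 S2, the lowest of its group.

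The myosin genes passed the test at p17 only. Myl9, the regulatory light chain that is phosphorylated to start contraction, ranged from 305 to 521 normalized reads in nOIR p14 mice (median 418) and from 278 to 527 in OIR p14 mice (median 483). At p17 it ranged from 255 to 408 in nOIR mice (median 329.8) and from 877 to 1935 in OIR mice (median 1206). The p14 groups overlapped almost wholly and the p17 groups not at all. The log2 fold change was 0.10 ± 0.18 at p14 (SE, adjusted p = 0.869) and 1.97 ± 0.17 at p17 (SE, adjusted p = 9.07e-10), with p17 means of 326 ± 60.0 and 1310.1 ± 384 (SD, n = 6 and 8).

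Myh11, the smooth muscle myosin heavy chain and a defining gene of mature smooth muscle, passed less clearly. It ran from 63.7 to 138 normalized reads in nOIR p14 mice (median 84.0) and from 40.3 to 193 in OIR p14 mice (median 127), with a log2 fold change of 0.19 ± 0.38 (SE, adjusted p = 0.89). At p17 it ran from 28.3 to 95.6 in nOIR mice (median 73.9) and from 70.9 to 330.2 in OIR mice (median 142). The p17 groups overlapped, and the log2 fold change was 1.19 ± 0.35 (SE, adjusted p = 0.0216). This call was lost with quantile normalization (adjusted p = 0.0619), without nOIR p17 S2 (adjusted p = 0.0826), without nOIR p17 S3 (adjusted p = 0.0565) and without OIR p17 S7 (adjusted p = 0.0517).

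Of the genes for proteins on the thin filament, Tpm2, the beta-tropomyosin that striated muscle also expresses, ran from 72.2 to 121 normalized reads in nOIR p14 mice (median 104) and from 107 to 321 in OIR p14 mice (median 209). At p17 it ran from 52.1 to 117 in nOIR mice (median 83.4) and from 264 to 889.8 in OIR mice (median 485). The p14 groups overlapped and the p17 groups did not. The log2 fold change was 0.96 ± 0.28 at p14 (SE, adjusted p = 0.0365) and 2.46 ± 0.26 at p17 (SE, adjusted p = 4.05e-08). OIR p17 S2 had the highest value of its group; without it the p17 log2 fold change was 2.33, and without S2 and S7 it was 2.28 (adjusted p = 9.68e-08 and 4.55e-07). The p14 call was lost when any 1 of 8 of the 26 mice was left out (nOIR p14 S1, S2, S3 or S5, OIR p14 S1, S2, S4 or S5), with adjusted p between 0.0547 and 0.105. It was also lost in 4 of 13 alternatives, among them with log2 Cryaa, a lens gene, as a covariate (adjusted p 0.0507 to 0.0692).

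Tagln, transgelin, an actin-bundling protein of smooth muscle, was low in every group. It ran from 3.05 to 16.2 normalized reads in nOIR p14 mice (median 9.90), from 16.5 to 48.1 in OIR p14 mice (median 21.9), from 2.78 to 11.7 in nOIR p17 mice (median 7.12) and from 18.9 to 54.5 in OIR p17 mice (median 37.0). The OIR groups lay wholly above their controls at both ages, narrowly at p14. The log2 fold change was 1.23 ± 0.37 at p14 (SE, adjusted p = 0.0469) and 2.19 ± 0.35 at p17 (SE, adjusted p = 3.11e-05). At p14 the exact permutation test gave p = 0.00216 (two-sided), the smallest that 6 against 6 mice can give, while the adjusted call was lost in 7 of 13 alternatives (adjusted p 0.0576 to 0.117). It was also lost when any 1 of 13 mice was left out (nOIR p14 S1, S2, S5 or S6, OIR p14 S1, S4 or S5, nOIR p17 S2, S3, S4 or S6, OIR p17 S6 or S7), with adjusted p between 0.0517 and 0.147. In the GENCODE M21 annotation, 67.9% of the exon bases of Tagln lie in exons of Pcsk7 or Gm48529, so reads there cannot be assigned to 1 gene and its level is uncertain. For Des the share was 5.86%, and the other 8 genes overlapped no exon of another gene.

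Cnn1, calponin, which inhibits the myosin ATPase, was the lowest of the 10 genes per kilobase of exon in every group. Its medians were 5.85 normalized reads in nOIR and 11.5 in OIR mice at p14, and 3.83 and 21.3 at p17. At p17 the OIR mice spread from 3.64 to 44.2, and S4 and S5 lay among the controls, which ran from 0 to 8.35. The log2 fold change was 1.26 ± 0.58 at p14 (SE, adjusted p = 0.258) and 2.13 ± 0.54 at p17 (SE, adjusted p = 0.0069). Without OIR p17 S2 and S7 the p17 value was 1.86 (adjusted p = 0.0365).

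Lmod1, leiomodin, which seeds new actin filaments in smooth muscle, passed the test at neither age. It ran from 88.0 to 149 normalized reads in nOIR p14 mice (median 123) and from 73.6 to 93.2 in OIR p14 mice (median 80.7). At p17 it ran from 89.2 to 139 in nOIR mice (median 111) and from 58.2 to 154 in OIR mice (median 102). The groups overlapped at both ages. The log2 fold change was -0.47 ± 0.20 at p14 (SE, adjusted p = 0.196) and -0.16 ± 0.18 at p17 (SE, adjusted p = 0.685).

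Des, desmin, the muscle intermediate filament that pericytes also carry, rose at both ages, and more at p17. It ran from 30.7 to 67.8 normalized reads in nOIR p14 mice (median 43.7) and from 64.5 to 125 in OIR p14 mice (median 90.6). At p17 it ran from 26.9 to 62.3 in nOIR mice (median 40.7) and from 227 to 714 in OIR mice (median 458). Only the p14 groups overlapped, by 1 mouse on each side. The means were 46.0 ± 14.4 against 94.2 ± 22.3 at p14 and 42.8 ± 13.8 against 471 ± 142 at p17, and the log2 fold change was 1.04 ± 0.25 at p14 (SE, adjusted p = 0.00845) and 3.43 ± 0.23 at p17 (SE, adjusted p = 6.82e-12). Without OIR p17 S2 and S7 the p17 value was 3.33 (adjusted p = 2.82e-10).

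**Figure D2:**
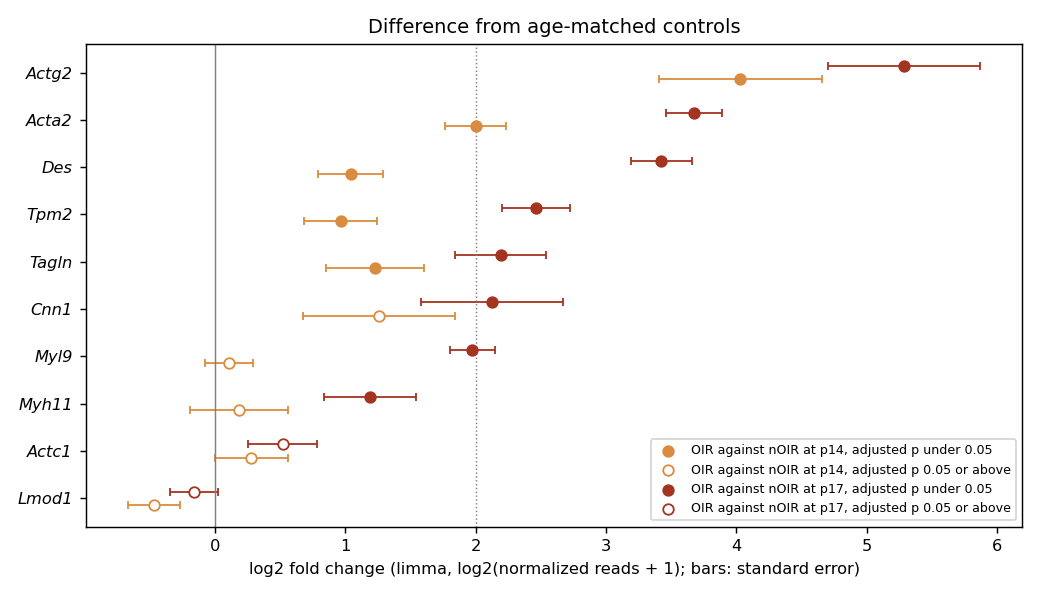
Log2 fold change of OIR against nOIR mice at p14 (orange) and p17 (dark red) for each contractile gene, with the standard error as bars; filled points have an adjusted p under 0.05, and the dotted line marks a log2 fold change of 2. All genes other than Actc1 and Lmod1 are filled at p17, and Myl9 and Myh11 are near 0 at p14.

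The groups did not overlap, with every OIR mouse above, for 3 genes at p14 (Acta2, Tagln and Actg2), against 1.91% of all genes, and for 6 at p17 (these with Des, Myl9 and Tpm2), against 3.9%. For each of the 6 the exact permutation test at p17 gave p = 0.000666 (two-sided), the smallest that 8 against 6 mice can give. With a log2 fold change beyond 2 asked for besides an adjusted p under 0.05, 1 gene passed at p14 (Actg2), against 0.744% of all genes, and 6 passed at p17 (Acta2, Tagln, Des, Cnn1, Tpm2 and Actg2), against 1.9%. Acta2 at p14 and Myl9 at p17 lay just under that limit. In several alternatives Acta2 at p14 passed it, with values up to 2.11, and the p14 count became 2. Without OIR p17 S2 and S7 the number of genes called higher at p17 was again 8, and 5 in place of 6 lay beyond a log2 fold change of 2, Cnn1 being the gene that fell below it. Over all alternatives, leaving out single mice included, the p17 value fell to 1.99 for Tagln and 1.73 for Cnn1. It reached 2.05 for Myl9, so the p17 count beyond 2 also depends on the processing.

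The difference between the 2 ages was tested as 1 contrast, the OIR effect at p17 minus the OIR effect at p14. It passed the test, with the larger effect at p17, for 4 of 10 genes, against 1.43% of all genes. Des differed by 2.39 (adjusted p = 7.60e-05), Myl9 by 1.87 (adjusted p = 3.16e-05), Acta2 by 1.68 (adjusted p = 0.00244) and Tpm2 by 1.50 (adjusted p = 0.0401) on the log2 scale. The Tpm2 call was the weakest of the 4: it was lost in 5 of 12 alternatives, among them without S2 and S7 of OIR p17 (adjusted p = 0.0952). It was also lost when any 1 of 17 mice was left out (nOIR p14 S1, S3, S5, S6 or S7, OIR p14 S2, S3 or S6, nOIR p17 S1, S3, S4 or S6, OIR p17 S2, S3, S6, S7 or S8), with adjusted p between 0.0505 and 0.0825. For Actg2 (1.25), Tagln (0.96), Cnn1 (0.87) and Myh11 (1.01) the adjusted p of this contrast lay between 0.501 and 0.763, so these data do not show whether their effects differed with age. Between OIR mice alone, p17 was above p14 for the same 4 genes, against 4.11% of all genes: Des by 2.28, Myl9 by 1.53, Acta2 by 1.23 and Tpm2 by 1.22 (adjusted p = 1.02e-07, 6.38e-07, 0.000407 and 0.0034). Des and Myl9 had every OIR p17 mouse above every OIR p14 mouse, against 1.41% of all genes.

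In nOIR mice none of the 10 genes changed between p14 and p17, where 0.317% of all genes did; edgeR and DESeq2 also called none, and 1 (Actc1) had an unadjusted p under 0.05. Actc1 was lower in every nOIR p17 mouse than in every nOIR p14 mouse, an order that 0.674% of all genes showed. Its log2 difference was -0.87 ± 0.28 (SE, adjusted p = 0.274), the exact permutation test gave p = 0.00216 (two-sided), and with only the nOIR groups in the fit the adjusted p was 0.00442. In OIR mice the Actc1 difference was -0.62 (adjusted p = 0.184), and it was -0.87 without OIR p17 S2 (adjusted p = 0.00509).

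Per kilobase of exon, to compare genes of different length, the summed means of the 10 genes were 715 in nOIR p14, 1185 in OIR p14, 531 in nOIR p17 and 2718 in OIR p17 retinas. Myl9 made up 49.9% of that sum in nOIR and 32.5% in OIR retinas at p14, and 52.8% and 41.5% at p17. Acta2 rose from 14.3% of the sum to 34.9% at p14 and from 14.8% to 36.7% at p17. The share of Actc1 was 22.1% in nOIR and 17.4% in OIR retinas at p14, and 16.3% and 5.30% at p17. Myl9 ranked first per kilobase in every group other than OIR p14, where Acta2 did, and Cnn1 ranked last in each. Tagln, whose reads cannot all be assigned, made up 0.671% to 1.08% of the sum, and its rank is uncertain.

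Single mice differed across several contractile genes. OIR p14 S3 had the lowest value of its group for 7 of 10 genes, Acta2, Des, Myh11, Myl9, Tpm2, Lmod1 and Actc1. OIR p17 S4 was lowest for 5 and S5 for 4 of its group, while S3 was highest for Acta2, Des and Cnn1.

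Other genes of the contractile apparatus rose in part. Their counts, and those of the lists after them, stand beside 3.18% of all genes called higher and 2.91% lower at p14, and 7.39% higher and 5.12% lower at p17. Of 22, 4 were higher at p14 and 11 at p17, with median log2 fold changes of 0.14 and 0.61, and none was lower by limma, edgeR or DESeq2, or at an unadjusted p under 0.05. Cald1, caldesmon, which binds actin and tropomyosin, changed by 0.25 at p14 (adjusted p = 0.144) and by 1.35 at p17 (adjusted p = 3.81e-12). Mustn1 changed by 0.72 at p14 (adjusted p = 0.167) and by 2.41 at p17 (adjusted p = 9.37e-08). Pdlim3, an actinin-binding protein, and Csrp1, a LIM protein of smooth muscle, were higher at both ages, by 0.85 and 0.79 at p14 and by 1.48 and 1.15 at p17. Of 16 genes for SRF, its cofactors and other transcriptional regulators, 3 were higher at p14 and 9 at p17. Srf itself gave -0.01 at p14 and -0.42 at p17, with neither called, and Myocd, myocardin, gave -0.05 at p14 and 1.32 at p17 (adjusted p = 0.00193). Elk3, an ETS-family partner of SRF, was 0.70 higher at p14 (adjusted p = 0.0074) and 1.54 higher at p17 (adjusted p = 1.12e-08). Heyl, a Notch target, was 1.75 higher at p17 and Prrx1, a mesenchymal homeobox factor, 1.83 higher at p14 and 2.90 higher at p17.

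Signals and channels that set contraction were in part lower at p14. Of 27 tested, 7 were lower at p14 and none was higher by limma, edgeR or DESeq2 (1 at an unadjusted p under 0.05), whereas 8 were higher and 6 lower at p17. Rgs5, a brake on G protein signalling that marks pericytes, averaged 2180 normalized reads in nOIR p14, 1046 in OIR p14, 1828 in nOIR p17 and 6576 in OIR p17 mice. Its log2 fold change was -1.10 ± 0.15 at p14 (SE, adjusted p = 1.75e-05) and 1.84 ± 0.14 at p17 (SE, adjusted p = 1.04e-10). Kcnj8 and Abcc9, the subunits of the vascular ATP-sensitive potassium channel, fell by 1.72 and 1.47 at p14 and were 0.99 and 1.36 higher at p17. Ednra, the endothelin A receptor, fell by 0.92 at p14 and was 2.23 higher at p17. The other 3 genes lower at p14 were lower at p17 too: Gucy1b1, a subunit of the nitric oxide receptor guanylate cyclase, gave -0.59 and -0.58, the potassium channel Kcna5 -0.78 and -0.45, and Rgs4, a relative of Rgs5, -0.52 and -0.36. Tbxa2r, the thromboxane receptor, gave 0.25 at p14 (adjusted p = 0.836) and 2.73 at p17 (adjusted p = 1.54e-06). Acta2 and Actg2, in the same mice, were above controls at both ages.

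**Figure D3:**
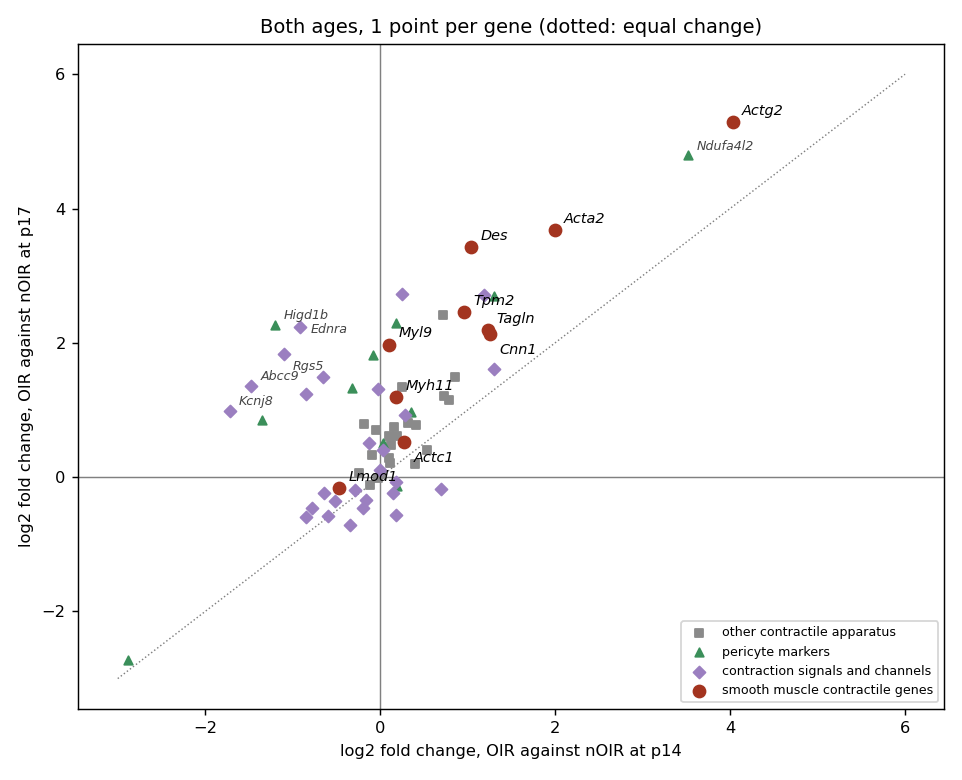
Log2 fold change of OIR against nOIR mice at p14 (horizontal) and p17 (vertical) for each contractile gene (red circles), the other contractile apparatus (grey squares), contraction signals and channels (purple diamonds) and pericyte markers (green triangles), with the line of equal change dotted. Acta2, Des, Tpm2, Tagln, Cnn1 and Actg2 lie above 0 on both axes, whereas Rgs5, Kcnj8, Abcc9, Ednra and Higd1b lie left of 0 at p14 and above 0 at p17.

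Relatives of the contractile genes, most of them non-muscle, moved in part. Of 20 tested, 5 were higher at p14, and 10 were higher and 2 lower at p17. The 20 include the striated muscle genes Acta1 and Lmod3, neither of which was called at either age. They also include the intermediate filament genes Vim, vimentin, and Gfap, the glial fibrillary acidic protein. Both were among the 5 higher at p14 and the 10 higher at p17. Gfap had log2 fold changes of 3.23 and 3.68 at these ages, and Vim of 1.14 and 1.46. Tagln2, the broadly expressed relative of Tagln, rose from a mean of 307 to 1545 normalized reads at p14 and from 191 to 2372 at p17, log2 fold changes of 2.29 ± 0.19 and 3.61 ± 0.17 (SE, adjusted p = 3.55e-09 and 4.73e-15). Cnn2, the non-muscle calponin, gave 0.22 at p14 (adjusted p = 0.659) and 2.60 at p17 (adjusted p = 1.74e-11), and Tpm4, a cytoskeletal tropomyosin, 0.59 and 1.98 (adjusted p = 0.0052 and 2.11e-12).

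At p17 markers of pericytes, endothelium and fibroblasts were in part higher too, while at p14 some of pericytes and endothelium were lower. Their part in the results was not tested. Of 12 pericyte markers, 2 were higher and 3 lower at p14, and 8 were higher and 1 lower at p17. Their summed level ranged from 20601 to 26149 normalized reads in nOIR p14 and from 17729.7 to 24600.0 in OIR p14 mice. At p17 it ranged from 22117 to 32733 in nOIR and from 27357 to 43428 in OIR mice. Such sums, here and below, weigh abundant genes most and need not follow the markers as a set. In nOIR mice the median pericyte sum was 23584 at p14 and 30472 at p17. None of the 12 markers was called between these ages, and their median log2 difference was -0.13. Among the pericyte markers Higd1b, a marker of the brain and retina, fell by 1.21 (log2) at p14 and was 2.27 higher at p17. The log2 differences were 0.18 and 2.29 for Cspg4, the NG2 proteoglycan, and 3.52 and 4.79 for Ndufa4l2. Atp13a5, a transport ATPase that marks pericytes of the brain, was lower at both ages, with -2.88 at p14 (adjusted p = 0.00037) and -2.72 at p17 (adjusted p = 9.81e-05), and Vtn, vitronectin, gave -0.47 and -0.14 (adjusted p = 0.0141 and 0.5). Of 11 endothelial markers, 1 was higher and 2 lower at p14 and 8 were higher at p17, with sums of 10778 to 14440.0 in nOIR p14, 8264 to 13947 in OIR p14, 9237 to 11265 in nOIR p17 and 12562 to 16603 in OIR p17 mice. Of 10 fibroblast markers, 3 were higher at p14 and 5 at p17, with sums of 1124 to 1627 in nOIR p14, 1233 to 3208 in OIR p14, 825 to 1280.2 in nOIR p17 and 2411 to 5553 in OIR p17 mice. The 5 at p17 were Pdgfra and the collagens Col1a1, Col1a2, Col3a1 and Col6a3. Dcn, Lum, Dpt, Fbln1 and Mfap5 were called by limma at neither age, and edgeR and DESeq2 each called 6 of the 10 higher at p17. None of 11 lens and none of 10 pigment epithelium, iris and ciliary body markers was called at either age by limma, edgeR or DESeq2. At an unadjusted p under 0.05 there was 1 lens marker at p17 and 1 pigment marker at p14. The median log2 fold change of the lens markers was 1.02 at p14 and 1.61 at p17. Their sums ranged from 182 to 24018 normalized reads in nOIR p14 mice (median 742), from 311 to 8632 in OIR p14 mice (median 3170.2), from 358 to 14320.3 in nOIR p17 mice (median 3047) and from 530.5 to 41790 in OIR p17 mice (median 10140.1). The highest control, nOIR p14 S5, which was kept, was above the left-out S4 (22443). The pigment sums ranged from 920.2 to 6109 in nOIR p17 and from 1594 to 5126 in OIR p17 mice.

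Of 22 striated muscle markers, 1 was higher at p14 (Tnnt2), against 3.18% of all genes, and 2 at p17 (Tnnt2 and Myh2), against 7.39%. At p17 edgeR called 5 and DESeq2 6 of them higher, 7 had an unadjusted p under 0.05 by limma, and their median log2 fold change was 1.42, beside 0.12 at p14. Myh2, a skeletal muscle myosin heavy chain, was at 0 in 3 OIR p17 mice and at 99.9 and 97.9 normalized reads in S2 and S7. Its log2 fold change at p17 was 2.68 (adjusted p = 0.0486), and the call was lost without OIR p17 S2 (adjusted p = 0.105) and without S2 and S7 (log2 fold change 1.41, adjusted p = 0.26). Tnnt2, cardiac troponin T, had means of 21.6 and 169.7 normalized reads in nOIR and OIR mice at p14 and of 26.0 and 227 at p17. In OIR p17 S2 the skeletal actin Acta1 was 2306 and the muscle creatine kinase Ckm 468 normalized reads, against at most 588 and 64.9 in the other 7 mice of its group. The same mouse had the highest Actc1 and Tpm2 of its group, and its Des was 538, under the 562 of S7 and the 714 of S3.

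**Figure D4:**
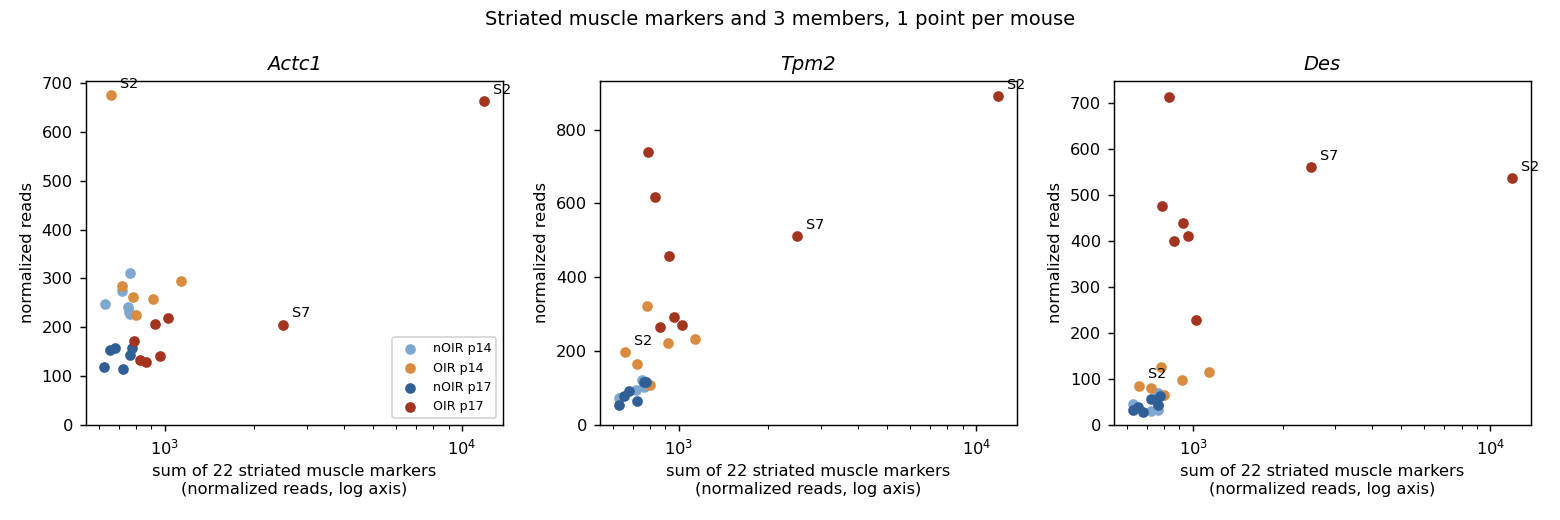
Sum of 22 striated muscle markers (horizontal, normalized reads, log axis) against the normalized reads of Actc1, Tpm2 and Des (vertical, from 0), with 1 point per mouse coloured by group. OIR p17 S2 lies far right at 11824, OIR p14 S2 has an Actc1 of 676 at a sum of 658, and every OIR p17 mouse lies above all nOIR p17 mice for Tpm2 and Des.

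The genes whose 4 group means lay nearest to those of Acta2, by Euclidean distance on the centred log2 scale over 18994 genes, were Ccr1 (0.145), 9330188P03Rik (0.213), Rrm2 (0.244), Mlkl (0.301) and Fosb (0.304). Nearest to Myh11 were Tax1bp3 (0.0767), Elovl1 (0.0845), Blnk (0.0870), 0610040J01Rik (0.102) and Nrp1 (0.123). None of the 10 contractile genes could enter these lists, and likeness over 4 means is a description only.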

How the data were processed

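RNA of whole retinas was sequenced as 1 library per mouse (27 mice deposited, 26 used). The authors mapped reads with STAR 2.7.8a, counted them with featureCounts 2.0.1 at default settings on GENCODE M28, and deposited a signal of normalized reads, counts divided by 1 DESeq2 1.34 size factor per mouse. The deposited table also holds the authors' group means, log2 fold changes and adjusted p-values; these hold the authors' own comparisons and were not used. The values were whole multiples of 1 step per mouse, so whole reads were recovered for 100% of values (within 0.001 read).

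The 27137 genes that averaged 1 normalized read or more entered limma 3.58.1 (trend) on log2(normalized reads + 1), with all 4 groups in 1 fit and Benjamini-Hochberg adjustment over all genes. Errors beside log2 fold changes are standard errors. Single genes were also compared by an exact permutation test. On simulated data of OIR against nOIR at p17, 100% of 100 genes changed by 2 and of 100 changed by 3 (log2) were recovered among 27305 genes, with 8 false calls. The simulation gave every gene the same fixed spread and changed only genes averaging at least 10 reads. It therefore does not give the recovery for low or variable genes such as Cnn1 and Actg2, which averaged at most 5.12 normalized reads in controls. Named genes were all 10 members; from each other list at most 4 genes with the smallest p at p17 and at most 2 at p14; and the 5 genes nearest to Acta2 and to Myh11 (mean of at least 10). Srf, Myocd, Acta1, Lmod3, Ckm, Gnat1, Atp13a5, Vtn, Gucy1b1, Kcna5 and Rgs4 were named besides, after their values were seen. So were Pdgfra, Dcn, Lum, Dpt, Fbln1 and Mfap5. The members and lists were chosen with earlier results of these data known. Exon lengths and overlaps came from GENCODE M21 on GRCm38, not the authors' release. Alternatives were edgeR 4.0.16 and DESeq2 1.42.0 on recovered reads, other pseudocounts, filters, scalings and covariates, and leaving out each mouse; 2 alternatives were chosen after seeing the data. PCR copies were not removed, so depth counts reads and not molecules.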

Additional observations from a re-analysis of the deposited data

Results flagged for a closer look

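In 4 of the 40 sets of 1 gene in 1 group, 1 mouse stood far from the others of its group, where chance gives about 1 in 20 sets. They were Acta2 in nOIR p17 S4 (312 normalized reads), Tagln in OIR p14 S5 (48.1), Actc1 in OIR p14 S2 (676) and Actc1 in OIR p17 S2 (663). The OIR effect differed between p17 and p14 by the test of the difference for Acta2 (1.68), Des (2.39), Myl9 (1.87) and Tpm2 (1.50), on the log2 scale.

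The left-out nOIR p14 mouse S4 exceeded all other nOIR p14 mice for 7 of the 10 genes. Its values were 379.8 normalized reads for Acta2, 16.9 for Tagln, 89.2 for Des, 212 for Myh11, 18.8 for Cnn1, 157 for Tpm2 and 10.9 for Actg2. Its striated muscle sum was 2311 normalized reads, against 629 to 763 in the other nOIR p14 mice. The part of these markers in its values was not tested.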

How the results depend on the processing

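Of the values for single contractile genes, 619 kept their side of the threshold under the alternatives, 17 lost a call and 4 gained one; with 1 mouse left out the numbers were 1258, 41 and 1. No called value changed sign. Values without a call changed sign in 6 cases, and in 11 with 1 mouse left out: Actc1 in the difference between ages (-0.01 without OIR p17 S2 and -0.05 without S2 and S7), and, for p17 against p14 in nOIR mice, Actg2 (down to -0.38), Des (up to 0.01) and Lmod1 (up to 0.03). At p17 the 8 genes called higher in OIR stayed within 1.5 times of that count under every alternative run. At p14 the count of 5 fell to 3 with all genes above 0 tested, with nOIR p14 S4 included and with quantile normalization, and ranged from 3 to 5 with 1 mouse left out (3 without nOIR p14 S1, S2 or S5 or OIR p14 S1, S4 or S5). The count beyond a log2 fold change of 2 at p14, 1, became 2 with a pseudocount of 0.1, with the replicate block, with the same total per mouse, with edgeR, with DESeq2 and without S2 of both OIR groups, and ranged from 1 to 2 with 1 mouse left out (2 without nOIR p14 S5, S6 or S7 or OIR p14 S2, S3 or S6). Acta2 lies at that limit. With only the groups compared in the fit, or without S2 of both OIR groups, 1 gene (Actc1) was lower at p17 than p14 in nOIR mice. In OIR mice it was 1 in place of 0 without S2 of both OIR groups and without S2 and S7 of OIR p17, and from 0 to 1 with 1 mouse left out (1 without OIR p17 S2). A fit of only the groups compared gives no value for the OIR effect at p17 minus that at p14. Mice of the same replicate number had correlations of -0.23 to 0.33 (median 0.014), beside -0.35 to 0.31 (median -0.003) for other pairs. Whether some numbers share a litter or a preparation was not tested. With the replicate block Tagln at p14 had an adjusted p of 0.0647 and the Tpm2 difference between ages 0.235. Over all genes, calls on the difference between ages numbered 429, 269 with the block and 663 with DESeq2. Calls between ages in nOIR mice numbered 86, 204 with only those groups and 234 with DESeq2 (34 to 131 with 1 mouse left out, 34 without nOIR p14 S3, 46 without nOIR p17 S4 and 131 without OIR p14 S1), and in OIR mice 1605 and 1025 with only those groups. edgeR called 1723 genes at p14 and 3361 at p17. The cause of these shifts was not tested. Cnn1, Tagln and Actg2 had the lowest means in controls, under 11 normalized reads, and how far depth limits their values was not tested.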
